A study of Mus musculus with 16 samples.

Results

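The values described here belong to 34 genes that mark successive stages of B cell development, measured in sorted mouse bone marrow stromal cells. The genes were taken by symbol from a fixed list, and all 34 had a row in the deposited count table of 52459 genes. They were divided into early lymphoid and pro-B genes (4), surrogate light chain and pre-B genes (5), B lineage regulators (6), antigen receptor chains and kinases used at all B stages (6), mature B genes (9) and plasma cell genes (4). Cells of the B lineage carry CD45, and the sort kept live single cells without CD45, Ter119 and CD31 and with CD51 and CD140a. B lineage cells were therefore outside the gate.

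The 4 SS libraries came from homozygous Townes sickle mice, with human sickle beta globin (βS) and human Aγ-globin in place of the mouse adult beta globin genes. The 4 SA libraries came from heterozygous mice, with 1 copy of βS and 1 of normal human beta globin (βA). Both genotypes carried human alpha globin (the allele Hbatm1(HBA)Tow). The labels give no ages. Total counts were 25790675 to 31117007 in SS and 24797857 to 30305254 in SA. Each library was sequenced on 2 lanes, and for SS replicate 4 the title of 1 lane reads SS while its source name reads SA. That lane was kept with the other lane of the same library. No label states that replicate numbers are separate animals, so p-values measure the spread between these libraries. Date-like numbers in the titles set every SA library apart from every SS library, so that whatever they stand for and genotype cannot be told apart. Within SS, the title of SS replicate 2 carried a different number from the other SS titles.

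B cells arise in bone marrow from lymphoid progenitors that rearrange the immunoglobulin heavy chain gene and then a light chain gene. A pro-B cell uses the RAG recombinase and terminal transferase on the heavy chain, and a pre-B cell shows the new heavy chain with a surrogate light chain. An immature B cell then carries complete IgM, a mature B cell adds IgD and surface receptors such as CD20 and CD23, and a plasma cell secretes antibody. Stromal cells of the kind sorted here feed the early stages with the chemokine Cxcl12 and the cytokine interleukin 7.

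Promoters are shown for members that define the pre-B and antigen receptor steps, since many B lineage promoters hold an E-box, the DNA letters bound by the E2A proteins encoded by Tcf3. RefSeq windows on GRCm38.p6, from 250 bases before to 50 bases after the start of a gene, were found for 26 of the 34 members. The E-box letters CAGGTG, read on both strands, stood in 14 of these 26 windows (53.8%) and in 20.2% of all 32851 windows in the table. The windows shown are Igll1 at chr16:16863936-16864235 (minus strand), Vpreb1 at chr16:16869206-16869505 (minus strand), Vpreb2 at chr16:17980315-17980614 (plus strand), Cd79a at chr7:24897247-24897546 (plus strand) and Vpreb3 at chr10:75948050-75948349 (plus strand). Each runs 5′ to 3′ along the strand of its gene. Capitals mark CAGGTG or its reverse complement CACCTG, and in Vpreb3 the octamer ATGCAAAT in its reverse complement ATTTGCAT.
Igll1: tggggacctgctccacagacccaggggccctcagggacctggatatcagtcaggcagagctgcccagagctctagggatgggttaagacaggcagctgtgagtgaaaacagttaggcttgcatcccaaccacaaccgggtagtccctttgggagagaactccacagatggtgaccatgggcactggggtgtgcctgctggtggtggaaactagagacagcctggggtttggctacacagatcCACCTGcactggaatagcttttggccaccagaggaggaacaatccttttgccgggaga
Vpreb1: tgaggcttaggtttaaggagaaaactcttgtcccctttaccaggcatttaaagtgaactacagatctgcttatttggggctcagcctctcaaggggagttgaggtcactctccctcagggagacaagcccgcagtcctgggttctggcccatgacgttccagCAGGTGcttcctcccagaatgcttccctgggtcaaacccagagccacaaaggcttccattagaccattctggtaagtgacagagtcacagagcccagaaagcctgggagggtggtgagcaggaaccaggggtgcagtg
Vpreb2: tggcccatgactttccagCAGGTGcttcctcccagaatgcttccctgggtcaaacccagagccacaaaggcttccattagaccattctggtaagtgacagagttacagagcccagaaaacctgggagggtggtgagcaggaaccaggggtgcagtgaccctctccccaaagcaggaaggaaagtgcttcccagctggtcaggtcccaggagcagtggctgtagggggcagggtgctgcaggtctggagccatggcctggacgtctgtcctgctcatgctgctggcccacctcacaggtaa
Cd79a: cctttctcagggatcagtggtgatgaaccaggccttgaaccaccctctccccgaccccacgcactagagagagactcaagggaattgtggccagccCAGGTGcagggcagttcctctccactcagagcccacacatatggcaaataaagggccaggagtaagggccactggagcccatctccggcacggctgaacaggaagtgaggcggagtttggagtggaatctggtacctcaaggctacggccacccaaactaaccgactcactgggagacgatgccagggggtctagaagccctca
Vpreb3: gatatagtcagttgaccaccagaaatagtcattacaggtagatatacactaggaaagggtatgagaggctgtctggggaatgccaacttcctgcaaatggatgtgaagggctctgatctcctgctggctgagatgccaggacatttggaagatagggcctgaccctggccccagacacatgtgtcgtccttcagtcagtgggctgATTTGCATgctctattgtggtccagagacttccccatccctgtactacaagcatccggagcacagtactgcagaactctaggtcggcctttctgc
The E-box began 8 bases before the start in Igll1, 88 before it in Vpreb1, 232 before it in Vpreb2 and 154 before it in Cd79a. The octamer, whose bound factors work with the coactivator encoded by the member Pou2af1, was found in 2 windows (7.69%), those of Blnk and Vpreb3, and in 1.74% of all windows. The letters CCCNNGGG, a core of sites for the factor EBF1, stood in 5 windows (19.2%) against 13.7% of all, and GAGGAAGT, a core for PU.1 and Spi-B, in 2 (7.69%) against 3.2%. CCCNNGGG reads the same on both strands, and the other letters were searched on both. A match describes letters in a window, and says nothing of binding in these cells.

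Before the members are compared, 3 libraries stood apart by leukocyte RNA: SS replicate 1 and SA replicates 1 and 2. CPM is the read count of a gene relative to its library total after TMM scaling. Summed CPM of 15 neutrophil genes was 16864, 3940, 7615 and 1366 in SS replicates 1 to 4, against 29540, 34921, 11209 and 6088 in SA replicates 1 to 4. Ptprc, which encodes CD45, was at 499, 54.1, 206 and 49.7 CPM in SS, against 748, 735, 209 and 124 CPM in SA. The sorted antigen CD140a, encoded by Pdgfra, was present in every library, at 331 to 481 CPM in SS and 169 to 476 CPM in SA. Itgav, which encodes CD51, was at 389 to 820 CPM in SS and 252 to 427 CPM in SA, and Pecam1, which encodes CD31, at 0.833 to 31.4 CPM in SS and 4.23 to 44.9 CPM in SA. SS replicate 2, which also differed from the other SS libraries in its title number, was the one library with high Xist. It had 57347 Xist counts against at most 420 in any other library. Ddx3y went the other way, with 12 counts in SS replicate 2 against at least 2282 in any other library.

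B cell genes had lower means in SS libraries at every stage, and none of the differences passed the adjusted threshold of the main test. The log2 fold change of SS over SA was below 0 for 31 of the 33 members tested, against 51% of all 17316 genes tested. Their median was -2.91, beside -0.01 over all genes. Vpreb2 was not tested, since it had too few counts. The filter asked for about 10 counts in 4 libraries, and 15 of the 33 had at least 10 counts in all 8 libraries. No member, and no gene of the 17316 (0%), had an adjusted p under 0.05 in edgeR's quasi-likelihood test, and the smallest adjusted p of a member was 0.411 for Ikzf3. At an unadjusted p under 0.05, 20 of the 33 were lower in SS, against 2.96% of all genes, and 0 were higher, against 4.03%. DESeq2, run as an alternative on the same counts, called 13 members lower in SS at an adjusted p under 0.05, against 0.725% of genes with an adjusted p. In bulk RNA, fewer B lineage cells among those collected and less RNA per cell cannot be told apart. Since B lineage cells were outside the gate, these values do not measure their number in the marrow.

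The 4 SS values lay below all 4 SA values for 6 of the 33 members, against 1.55% of all genes: Vpreb3, Ikzf3, Spib, Ms4a1, Btla and Mzb1. For 0 members all SS values lay above all SA values, against 2.36% of all genes. The other 27 had at least 1 SS library within the SA range or above it. SA replicates 1 and 2 were the 2 highest libraries for 26 of the 33, which is also where neutrophil genes were highest. The members took 0.0584%, 0.0119%, 0.0204% and 0.0149% of all counts in SS replicates 1 to 4, against 0.269%, 0.191%, 0.0536% and 0.0381% in SA replicates 1 to 4. SS replicate 1 thus exceeded SA replicates 3 and 4, and the remaining SS libraries were below all SA libraries. All 10 pan-leukocyte genes and all 15 neutrophil genes also had a fold change below 0, with medians of -1.21 and -1.43, and 0 of the 10 and 1 of the 15 had an unadjusted p under 0.05. Most macrophage genes had the opposite sign. Of these 8 genes, 7 had a fold change above 0 and 1 below, with a median of 0.41, and 0 had an unadjusted p under 0.05. The 7 included Vcam1, the highest of the 8, at 909 to 1407 CPM in SS and 820 to 1021 CPM in SA. Whether its reads came from macrophages was not tested.

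**Figure D1:**
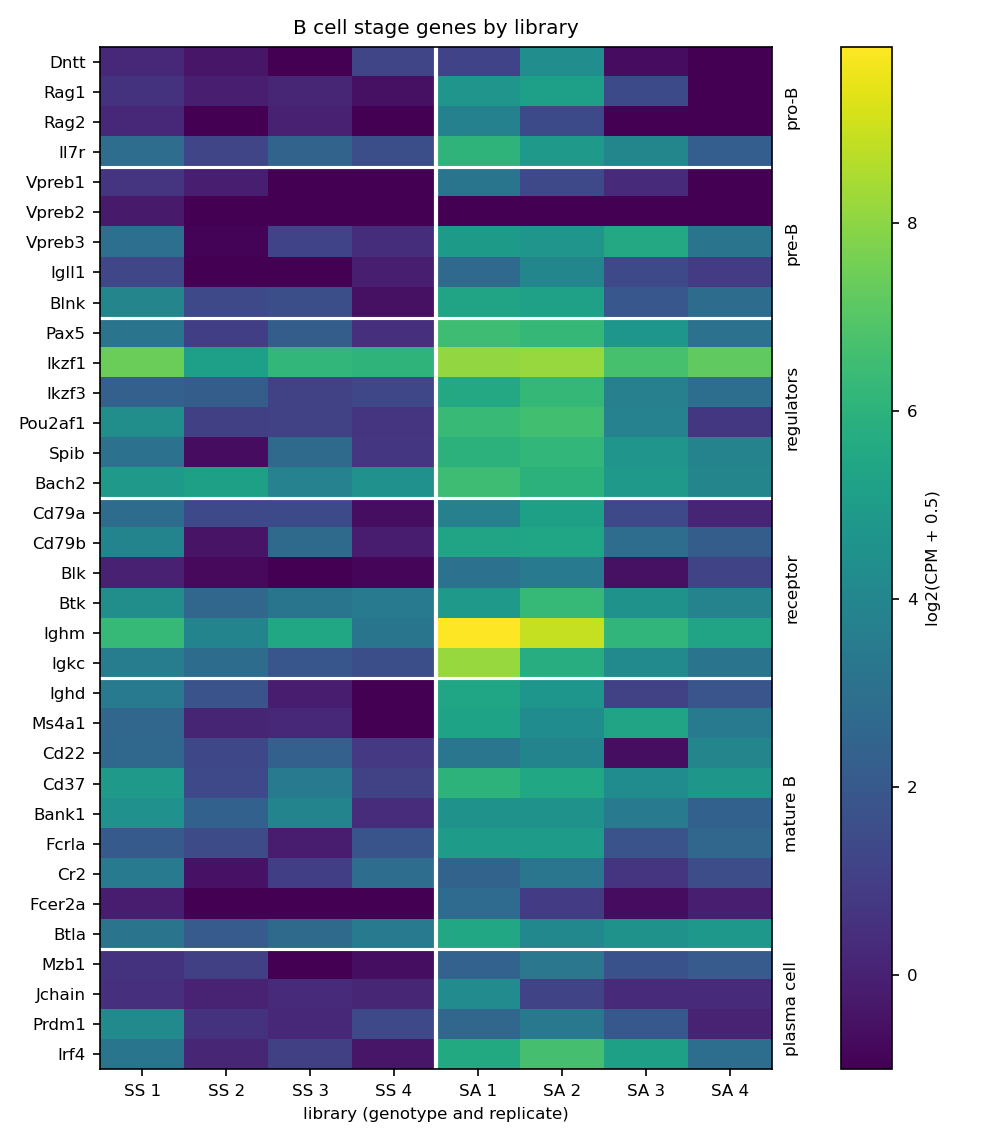
Levels of the B cell stage genes in each library, as log2 of CPM with the pseudocount named on the colour bar, with SS libraries at the left, SA libraries at the right and genes ordered by stage. The columns of SA replicates 1 and 2 are the strongest, SS replicate 1 is the strongest of its genotype, and Ighm and Ikzf1 are the highest rows.

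Among the pro-B genes, Il7r and Rag1 had the clearest differences. Il7r, the alpha chain of the interleukin 7 receptor that mouse B cell precursors depend on, was at 6.80, 1.88, 5.05 and 2.52 CPM in SS, against 67.3, 29.4, 15.4 and 4.27 CPM in SA. SA replicate 4 lay within the SS range, and the other SA libraries lay above every SS library. The log2 fold change was -2.84 (SE 0.77), with an adjusted p of 0.604 in edgeR and 0.0191 in DESeq2. Rag1, the catalytic part of the recombinase that cuts antigen receptor genes, was at 1.02, 0.434, 0.636 and 0.193 CPM in SS, against 25.2, 35.2, 2.24 and 0 CPM in SA. It was thus nearly confined to SA replicates 1 and 2, with 671 and 1012 counts there and at most 67 in any other library. Its log2 fold change was -4.77 (SE 1.53, adjusted p = 0.695 in edgeR and 0.0269 in DESeq2).

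Rag2, the partner of Rag1, and Dntt, the terminal transferase that adds bases at heavy chain joints, each rested on 1 SA library. Rag2 was at 0.669, 0, 0.495 and 0 CPM in SS, against 13.1, 2.19, 0 and 0 CPM in SA. Dntt was at 0.669, 0.290, 0 and 1.90 CPM in SS, against 1.77, 19.5, 0.134 and 0 CPM in SA. Both genotypes overlapped for each gene. A count of 0 allows up to 3 counts, or 0.0967 to 0.113 CPM across these libraries. Their log2 fold changes were -3.70 (SE 2.20) and -2.89 (SE 1.89), but -1.33 for Rag2 without SA replicate 1 and 0.18 for Dntt without SA replicate 2. The highest Rag2 value was in SA replicate 1 and the highest Dntt value in SA replicate 2, so the pro-B genes did not peak in the same library.

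Of the pre-B genes, Vpreb3 separated the genotypes. Vpreb3 encodes a relative of the surrogate light chain proteins that binds newly made heavy chain inside the cell, and was at 7.398, 0.0362, 1.77 and 0.838 CPM in SS, against 29.6, 24.6, 47.02 and 8.46 CPM in SA. Every SA library lay above every SS library, and the highest was SA replicate 3, which was not among the leukocyte-rich libraries. The log2 fold change was -3.45 (SE 1.08, adjusted p = 0.689 in edgeR and 0.0445 in DESeq2). Igll1, the lambda 5 part of the surrogate light chain, was at 2.01, 0, 0 and 0.451 CPM in SS, against 6.13, 15.5, 2.14 and 1.36 CPM in SA (log2 fold change -3.34, SE 1.58). Its groups overlapped through SS replicate 1 alone. Blnk, the adaptor that links the receptor to kinase signalling, was at 14.9, 2.14, 2.58 and 0.193 CPM in SS, against 40.1, 36.9, 3.31 and 6.70 CPM in SA (log2 fold change -2.14, SE 1.12).

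Vpreb1 and Vpreb2 encode the other part of the surrogate light chain, and their transcripts were identical at 739 of 759 aligned bases (97.4%), so reads can be assigned to either copy or to neither. Vpreb1 was at 1.09, 0.434, 0 and 0 CPM in SS, against 8.72, 2.12, 0.736 and 0 CPM in SA, with a log2 fold change of -2.91 (SE 1.91), and -1.32 without SA replicate 1. Its exons also overlap 108 bases of exons of Top3b, a gene measured at 23.3 to 52.9 CPM in SS and 32.5 to 59.7 CPM in SA. Vpreb2 had 10 counts in SS replicate 1 and 0 in the other 7 libraries. Vpreb1 and Vpreb2 were thus at or near their limit of detection in several libraries of each genotype.

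The B lineage regulators held the member with the smallest p-value, Ikzf3. This gene encodes Aiolos and was at 4.61, 4.06, 1.66 and 1.97 CPM in SS, against 47.1, 75.8, 13.0 and 7.21 CPM in SA. The groups did not overlap, and the log2 fold change was -3.54 (SE 0.75), with an adjusted p of 0.411 in edgeR and 0.000412 in DESeq2. Pax5, the factor that commits a progenitor to the B lineage, was at 8.49, 1.52, 4.13 and 0.871 CPM in SS, against 90.04, 74.3, 25.6 and 7.84 CPM in SA. Only SS replicate 1 overlapped the SA range, by lying above SA replicate 4. Means were 3.75 ± 3.46 CPM in SS and 49.4 ± 39.0 CPM in SA (SD, n = 4 each), and the log2 fold change was -3.72 (SE 0.88, adjusted p = 0.520 in edgeR and 0.00221 in DESeq2).

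Spib, an ETS factor of B cells and plasmacytoid dendritic cells, was at 7.93, 0.145, 6.18 and 1.13 CPM in SS, against 63.3, 74.0, 24.8 and 14.2 CPM in SA. Its groups did not overlap (log2 fold change -3.52, SE 0.99, adjusted p = 0.604 in edgeR and 0.0184 in DESeq2). Siglech, a marker of plasmacytoid dendritic cells, was at 8.45, 0, 0 and 0.0322 CPM in SS, against 4.81, 15.5, 0.971 and 9.13 CPM in SA. Of the 6 genes of that cell type, 5 had a fold change below 0 and 1 had an unadjusted p under 0.05. Their part in the Spib result was not tested.

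Pou2af1, the coactivator named above, was at 20.05, 1.56, 1.70 and 1.03 CPM in SS, against 81.9, 96.4, 13.7 and 1.18 CPM in SA (log2 fold change -2.99, SE 1.27). SS replicate 1 lay above SA replicates 3 and 4. Ikzf1, which encodes Ikaros and is used across blood lineages, was at 170, 34.5, 72.0 and 66.2 CPM in SS, against 280, 293, 105 and 147 CPM in SA (log2 fold change -1.26, SE 0.48). Bach2, which restrains the turn to plasma cells, was at 28.8, 35.3, 13.7 and 21.9 CPM in SS, against 90.3, 63.2, 27.7 and 15.2 CPM in SA (log2 fold change -0.98, SE 0.52). Ikzf1 and Bach2 had the smallest fold changes of the 6 regulators, and both genotypes overlapped for each.

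The receptor genes were led by the immunoglobulin constant regions, in SA the most abundant members per kilobase of exon. Ighm, the IgM heavy chain constant region (GRCm38 chr12:113418558-113422730), was at 77.8, 14.3, 45.7 and 8.96 CPM in SS, against 937, 482, 70.9 and 40.2 CPM in SA. Igkc, the kappa light chain constant region (chr6:70726435-70726966), was at 11.4, 6.73, 3.25 and 2.58 CPM in SS, against 294, 54.5, 17.3 and 8.54 CPM in SA. For both genes SS replicate 1 was the highest SS library. It lay above SA replicate 4 for Igkc and above SA replicates 3 and 4 for Ighm, where SS replicate 3 also lay above SA replicate 4. Log2 fold changes were -3.38 (SE 1.01, adjusted p = 0.633 in edgeR and 0.0248 in DESeq2) for Ighm and -3.96 (SE 1.04, adjusted p = 0.595 in edgeR and 0.00482 in DESeq2) for Igkc. Without SA replicate 1 that of Igkc was -2.17. Per kilobase, mean Ighm was 19.4 CPM in SS and 203 CPM in SA, and mean Igkc was 11.3 CPM in SS and 176 CPM in SA. Ikzf1 followed in SA at 35.7 CPM per kilobase, then Vpreb3 at 31.9. In SS, Ikzf1 at 14.8 CPM per kilobase lay between Ighm and Igkc.

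Cd79a and Cd79b, the signalling chains of the receptor, differed less than the immunoglobulin genes. Cd79a was at 6.69, 2.17, 2.19 and 0.161 CPM in SS, against 12.9, 35.5, 2.18 and 0.589 CPM in SA. Cd79b was at 14.5, 0.253, 6.36 and 0.419 CPM in SS, against 40.3, 40.9, 6.96 and 4.08 CPM in SA. The ranges overlapped widely, with SS replicates 1 and 3 at or above SA replicate 4 for both genes. Their log2 fold changes were -2.19 (SE 1.23) and -2.10 (SE 1.18), and that of Cd79a was -0.90 without SA replicate 2.

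The receptor kinases were also lower in value. Blk, a Src-family kinase largely of B cells, was at 0.493, 0.109, 0 and 0.0645 CPM in SS, against 7.90, 10.7, 0.201 and 1.88 CPM in SA. Its log2 fold change was -4.92 (SE 1.53, adjusted p = 0.680 in edgeR and 0.0140 in DESeq2), the largest in size of the 33. Only SS replicate 1 overlapped the SA values, through SA replicate 3. Btk, a kinase that myeloid cells also use, was at 20.0, 5.50, 8.73 and 10.2 CPM in SS, against 28.8, 77.1, 22.6 and 14.1 CPM in SA (log2 fold change -1.68, SE 0.58).

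**Figure D2:**
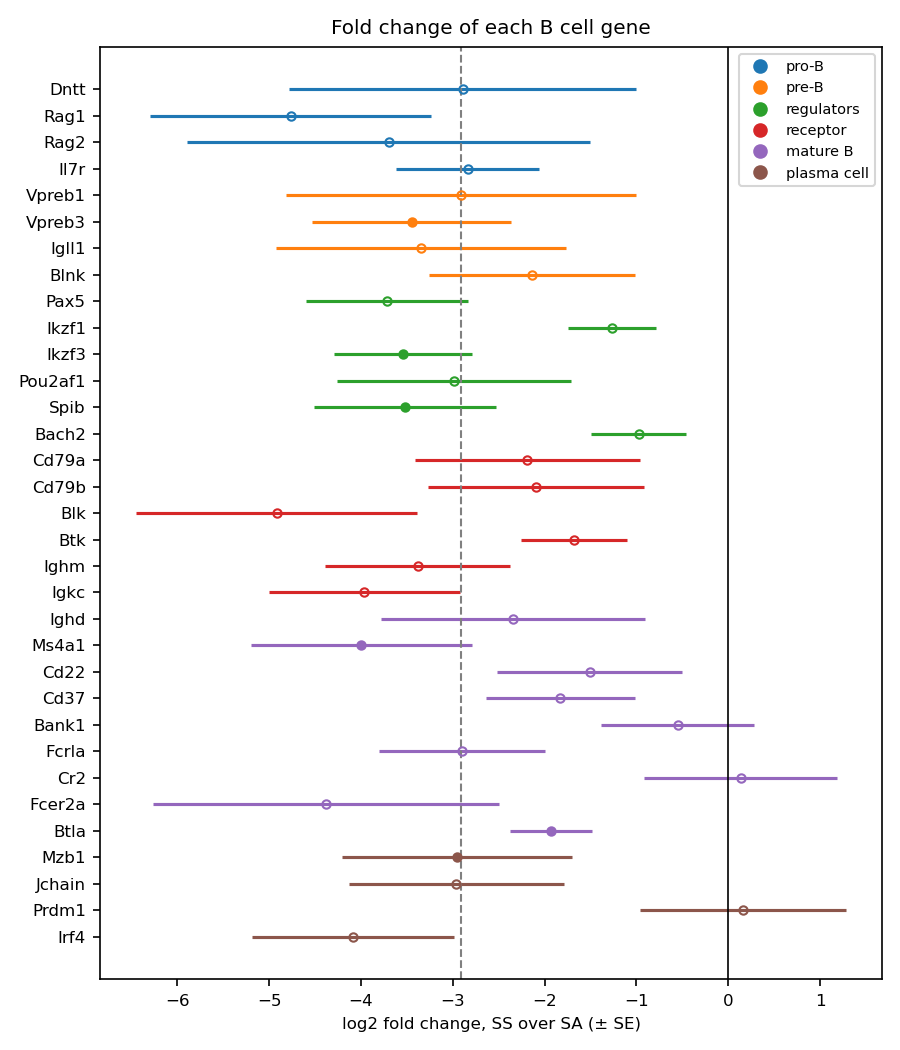
Log2 fold change of SS over SA for each of the 33 members tested, with bars of 1 standard error, coloured by stage. Filled points mark the 6 members whose SS and SA values did not overlap, and the dashed line is the median of the members, -2.91. Cr2 and Prdm1 lie right of 0.

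Mature B genes were mixed. Ms4a1, which encodes CD20, was at 5.53, 0.579, 0.707 and 0 CPM in SS, against 39.5, 19.0, 40.2 and 10.2 CPM in SA, without overlap. Its log2 fold change was -4.00 (SE 1.20, adjusted p = 0.636 in edgeR and 0.0309 in DESeq2). Btla, an inhibitory receptor of B and T cells, was at 8.67, 3.80, 6.36 and 10.4 CPM in SS, against 44.4, 16.3, 23.3 and 27.2 CPM in SA, again without overlap (log2 fold change -1.93, SE 0.45, adjusted p = 0.520 in edgeR and 0.00355 in DESeq2). The T cell receptor gene Cd3e, set beside Btla since T cells also carry it, was at 3.29 to 4.59 CPM in SS and 4.23 to 4.82 CPM in SA. Of 11 T cell genes 9 were tested, and all 9 had a fold change below 0, with a median of -0.37. None of the 9 had an unadjusted p under 0.05. Cd8a and Cd8b1 were not tested in edgeR. Cd8b1 had 48 and 179 counts in SA replicates 1 and 2 and at most 3 in any other library. DESeq2 gave Cd8b1 a log2 fold change of -5.33 (adjusted p = 0.0347). Btla also stood apart from most members in its highest SS value, which was in SS replicate 4 and not in SS replicate 1.

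Fcrla, an Fc receptor-like protein of B cells, was at 3.77, 2.32, 0.389 and 2.999 CPM in SS, against 31.8, 30.7, 2.98 and 5.45 CPM in SA (log2 fold change -2.90, SE 0.91, adjusted p = 0.680 in edgeR and 0.0417 in DESeq2). SS replicates 1 and 4 lay just above SA replicate 3. Cd37, a tetraspanin of B cells and other leukocytes, was at 28.5, 2.17, 10.9 and 1.74 CPM in SS, against 64.4, 43.8, 19.0 and 26.5 CPM in SA (log2 fold change -1.83, SE 0.81). Fcer2a, which encodes CD23, was detected in SS replicate 1 alone among SS libraries, at 0.388 CPM, and at 6.47, 1.35, 0.134 and 0.442 CPM in SA (log2 fold change -4.38, SE 1.88, and -2.68 without SA replicate 1). Ighd, the IgD constant region, was at 10.7, 2.93, 0.424 and 0 CPM in SS, against 41.0, 25.4, 1.71 and 3.13 CPM in SA (log2 fold change -2.34, SE 1.44).

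The remaining mature B genes had p-values above 0.05. Cd22, an inhibitory receptor for sialic acids, had a log2 fold change of -1.51 (SE 1.01), at 1.23 to 5.78 CPM in SS and 0.167 to 15.01 CPM in SA. Bank1, an adaptor of receptor signalling, had one of -0.55 (SE 0.84), at 0.806 to 21.8 CPM in SS and 4.64 to 23.2 CPM in SA. Cr2, the complement receptor CD21, had one of 0.13 (SE 1.05), at 0.217 to 10.7 CPM in SS and 1.10 to 8.997 CPM in SA. For Bank1 and Cr2 the 2 genotypes spanned much the same range. For Cd22, SA replicates 1, 2 and 4, at 9.02, 14.5 and 15.01 CPM, lay above every SS library. SA replicate 3, with 5 counts of Cd22, lay below every SS library, and without it the log2 fold change was -1.92.

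The plasma cell genes did not move as a group. Irf4, a factor of activated B cells and plasma cells that other leukocytes also use, was at 8.91, 0.616, 1.55 and 0.290 CPM in SS, against 48.8, 101, 35.9 and 7.21 CPM in SA. Only SS replicate 1 overlapped SA, and the log2 fold change was -4.09 (SE 1.10, adjusted p = 0.595 in edgeR and 0.00696 in DESeq2). Mzb1, a helper protein of antibody folding, was at 0.986, 1.56, 0 and 0.161 CPM in SS, against 4.85, 9.55, 2.88 and 3.79 CPM in SA, without overlap (log2 fold change -2.96, SE 1.25). Its exons share 695 bases with another gene, so its reads cannot be assigned to it with certainty. Jchain, which joins IgM and IgA into polymers, was at 0.881, 0.543, 0.742 and 0.613 CPM in SS, against 18.4, 1.84, 0.770 and 0.773 CPM in SA. Its log2 fold change was -2.96 (SE 1.17) and moved to -0.71 without SA replicate 1, the library that held most of its counts. Prdm1, which encodes the plasma cell factor Blimp-1 and acts in other cells too, was at 17.9, 1.01, 0.707 and 2.16 CPM in SS, against 5.53, 9.90, 3.48 and 0.552 CPM in SA. Its log2 fold change was 0.16 (SE 1.12), and -1.90 without SS replicate 1.

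Summed by stage, all 6 lists had lower means in SS, and for all 6 the ranges overlapped. The pro-B sum was 9.16, 2.61, 6.18 and 4.61 CPM in SS, against 107, 86.2, 17.8 and 4.27 CPM in SA. The receptor sum was 131, 29.1, 66.2 and 22.4 CPM in SS, against 1322, 701, 120 and 69.3 CPM in SA. These lists had the largest log2 ratios of the SS mean to the SA mean, -3.26 and -3.15, and the ratios were -1.31 and -1.27 without SS replicate 1 and SA replicates 1 and 2. The pre-B sum was 25.7, 2.61, 4.35 and 1.48 CPM in SS, against 84.5, 79.2, 53.2 and 16.5 CPM in SA. Its log2 ratio was -2.77 with all libraries and -3.64 without those 3. The mature B sum had a log2 ratio of -1.85, and -1.83 without those 3. The plasma cell and regulator sums had log2 ratios of -2.73 and -1.76, and -3.07 and -1.16 without those 3. The pre-B, mature B and plasma cell ratios were thus about as large or larger in the leukocyte-poor libraries, and the pro-B, receptor and regulator ratios were smaller in size there. The pre-B and plasma cell sums rested largely on 1 gene each there. Vpreb3 made up 47.02 of the 53.2 CPM in SA replicate 3 and 8.46 of the 16.5 CPM in SA replicate 4. Irf4, which other leukocytes also use, made up 35.9 of 43.1 CPM and 7.21 of 12.3 CPM in the same libraries. Over all libraries, the receptor and regulator sums also leaned on 1 gene each. Mean Ighm was 36.7 of 62.2 CPM of the receptor sum in SS and 383 of 553 CPM in SA. Mean Ikzf1, a gene used across blood lineages, was 85.8 of 127 CPM of the regulator sum in SS and 206 of 433 CPM in SA.

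**Figure D3:**
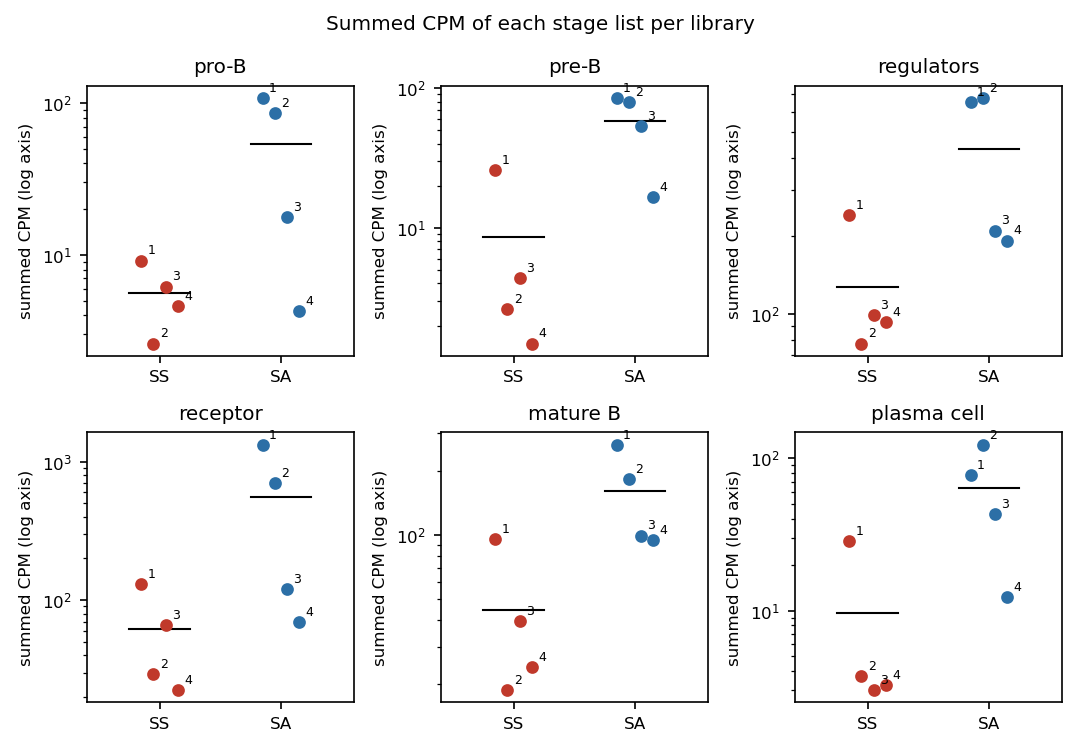
Summed CPM of each stage list in each library on log axes, 1 panel per list, with the 4 SS libraries left of the 4 SA libraries and each point labelled by its replicate number; horizontal lines are means. SS replicate 1 lies within the SA range or nearest to it in each panel, and the other SS libraries lie mostly below the SA libraries.

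Neutrophil and pan-leukocyte RNA moved with the same libraries. The members were therefore also set against Ptprc within each library, a ratio chosen after the data were seen. Mean Ptprc was itself lower in SS, at 202 against 454 CPM, so genes that do not follow it are raised in SS on this scale. That lowers the share of all genes found lower in SS, which was 1.55% in CPM. The share among leukocyte genes alone was not computed. Per 100 Ptprc counts, 8 of the 33 members were lower in SS without overlap, against 0.179% of all genes: Vpreb3, Pax5, Spib, Cd79b, Ighm, Ms4a1, Cd37 and Irf4. None was higher without overlap. The gap was narrow for Cd79b and Cd37. Cd79b reached 3.09 in SS replicate 3, against 3.28 in SA replicate 4. Cd37 reached 5.72 in SS replicate 1, against 5.96 in SA replicate 2. Pax5 stood at 1.70, 2.81, 2.01 and 1.75 counts per 100 Ptprc counts in SS, against 12.0, 10.1, 12.2 and 6.30 in SA. In SS the Pax5 ratio stayed between 1.70 and 2.81, although Ptprc itself ranged from 49.7 to 499 CPM in SS and from 124 to 748 CPM in SA. Ighm stood at 15.6, 26.4, 22.2 and 18.0 per 100 Ptprc counts in SS, against 125, 65.6, 33.9 and 32.3 in SA. Spib stood at 1.59, 0.268, 3.01 and 2.27 in SS, against 8.46, 10.1, 11.9 and 11.4 in SA. Irf4 stood at 1.79, 1.14, 0.756 and 0.584 in SS, against 6.53, 13.8, 17.2 and 5.80 in SA.

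Ikzf3, Btla and Mzb1, which did not overlap in CPM, did overlap on the Ptprc scale. Ikzf3 stood at 0.925, 7.49, 0.807 and 3.96 per 100 Ptprc counts in SS, against 6.29, 10.3, 6.24 and 5.80 in SA. Btla stood at 1.74, 7.02, 3.09 and 20.8 in SS, against 5.94, 2.22, 11.2 and 21.8 in SA. Ikzf1 and Bach2 were also among the members without separation on this scale. Ikzf1 stood at 34.2, 63.8, 35.0 and 133 per 100 Ptprc counts in SS, against 37.4, 39.9, 50.2 and 118 in SA. Bach2 stood at 5.77, 65.3, 6.68 and 44.0 in SS, against 12.1, 8.60, 13.3 and 12.2 in SA. SS replicates 2 and 4, with the least Ptprc, had the highest Bach2 ratios. Set against the 15 neutrophil genes in the same way, 5 members were lower without overlap (Vpreb3, Pax5, Spib, Ms4a1 and Irf4), against 0.0809% of all genes. The mean neutrophil sum was also lower in SS, at 7446 against 20440 CPM, so this share is lowered in the same way.

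**Figure D4:**
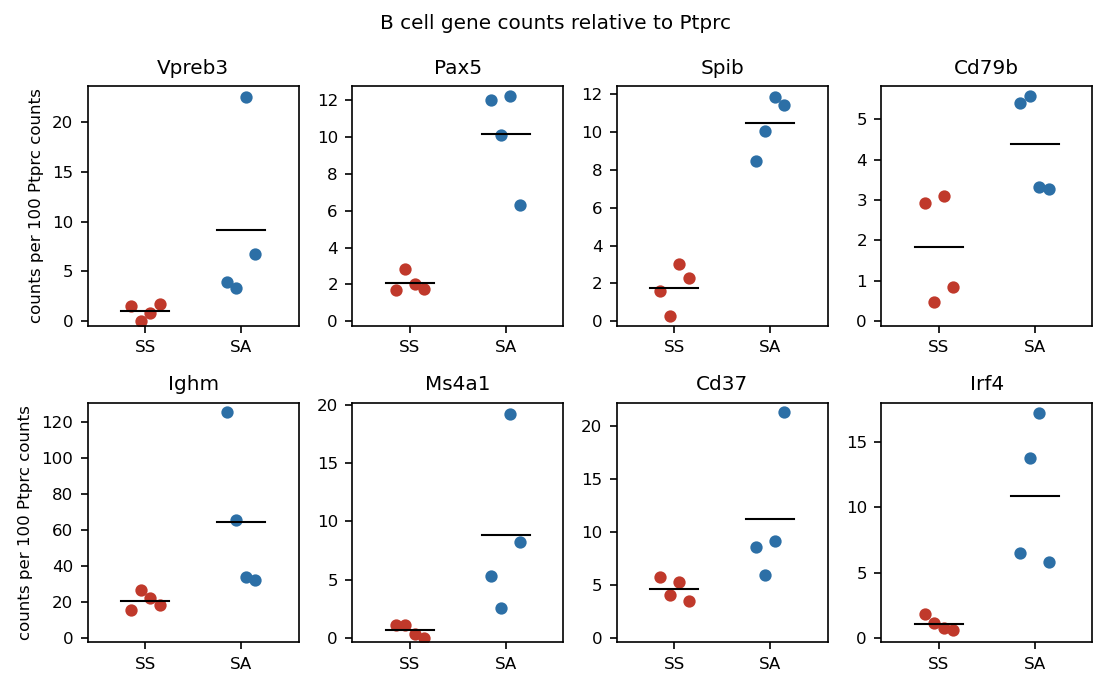
Counts of the 8 members without overlap per 100 counts of Ptprc in the same library, 1 panel per gene on linear axes, with SS left of SA, 1 point per library and horizontal lines at the means. Pax5 lies between 1.70 and 2.81 in SS and between 6.30 and 12.2 in SA.

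When the neutrophil level entered the edgeR fit as a covariate, 26 of the 33 members still had a fold change below 0, with a median of -1.52, and 7 had an unadjusted p under 0.05, against 1.95% of all genes. Without SS replicate 1 and SA replicates 1 and 2, 29 members could be tested. Of these 26 had a fold change below 0, the median was -1.54 and 9 had an unadjusted p under 0.05, against 3.04% of all genes. In those 5 libraries 15 members did not overlap, against 10.9% of all genes. Without SS replicate 1 alone, all 33 members tested had a fold change below 0, 23 had an unadjusted p under 0.05 (6.22% of all genes) and 17 did not overlap (4.51% of all genes).

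Ratios between members also varied among SA libraries, in no single order of stages. Per 100 counts of Cd79b, which serves as a measure of B lineage RNA within a library, Rag1 stood at 62.5, 85.9, 32.2 and 0 in SA replicates 1 to 4. Ms4a1 stood at 98.0, 46.4, 578 and 250 on the same scale, and Vpreb3 at 73.3, 60.2, 675 and 207. Rag1 was thus higher relative to Cd79b in SA replicates 1 and 2, and Ms4a1 and Vpreb3 in SA replicates 3 and 4. Other genes of the same stages did not follow. The mature B gene Ighd stood at 102, 62.1, 24.5 and 76.6, and the pro-B gene Il7r at 167, 71.8, 222 and 105. In SS replicates 2 and 4 Cd79b had only 7 and 13 counts, too few for such a ratio.

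Immunoglobulin variable (V) segments are the parts that recombination selects, and each B cell clone carries its own rearranged segments. Of the 346 V genes in the table, 18, 2, 5 and 1 had at least 10 counts in SS replicates 1 to 4, against 41, 40, 15 and 6 in SA replicates 1 to 4. All V genes together had 542, 150, 282 and 66 counts in SS, against 8328, 2336, 750 and 269 in SA. The ranges overlapped through SS replicate 1 in the number of segments, and through SS replicates 1 and 3 in their counts. The difference of the means, SS minus SA, was -19 segments.

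Single V segments took large shares in some libraries. Igkv15-103 held 3933 of the 8328 V counts of SA replicate 1 (47.2%, 95% Wilson interval 46.2 to 48.3%) and had at most 8 counts in any other library. Ighv7-1, with 1232 counts, and Ighv3-6, with 800, were also high in SA replicate 1, with 0 and at most 3 counts elsewhere. That library also held the highest Igkc and Jchain values. Ighv1-64 took 48.8% of V counts in SA replicate 3 (366 counts, 45.2 to 52.4%) and Ighv6-3 took 58.7% in SS replicate 2 (88 counts, 50.7 to 66.2%). The most counted segment held 12.8% of V counts in SA replicate 2 (11.5 to 14.2%) and 11.6% in SS replicate 1 (9.19 to 14.6%), so that reads there were spread more evenly. It held 33.3% in SS replicate 3, 27.1% in SA replicate 4 and 16.7% of the 66 counts in SS replicate 4. V genes resemble each other, and counts of a single one depend on how shared reads were assigned.

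**Figure D5:**
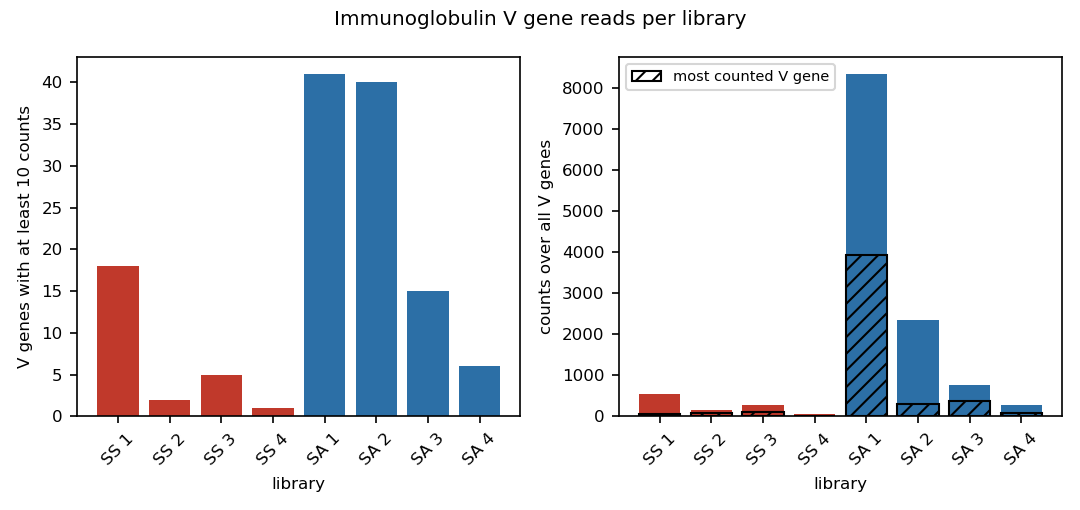
Left, number of V genes with at least 10 counts in each library; right, all V gene counts in each library on a linear axis with the most counted V gene hatched. SS replicates 1 to 4 come before SA replicates 1 to 4, and SA replicates 1 and 2 have the most segments, 41 and 40.

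Other B cell genes were lower as well, though less uniformly. Of a list of 32, 26 were tested, of which 22 had a fold change below 0, 7 of them with an unadjusted p under 0.05 (2.96% of all genes), and 4 above 0. The median was -1.26. None was called by edgeR. DESeq2 called 4 of the 26 (0.725% of its genes) and Cxcr5, which edgeR had not tested. For Cd72, a B cell coreceptor, the log2 difference was -3.41 (SE 0.83), with adjusted p-values of 0.520 in edgeR and 0.000244 in DESeq2. Ralgps2 and Siglecg had -2.42 (SE 0.72) and -4.07 (SE 1.21) on the same scale. Ebf1, a B lineage factor that stromal cells also express, was close between genotypes, at 277, 384, 351 and 384 CPM in SS, against 358, 285, 393 and 410 CPM in SA (log2 fold change -0.05, SE 0.19).

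Factors that stromal cells make for B cell precursors had mixed values. Of 7 such genes 5 had a fold change above 0 and 2 below. None was called by edgeR or DESeq2, and 1 had an unadjusted p under 0.05. Il7, which encodes interleukin 7, was at 88.4, 168, 84.7 and 73.7 CPM in SS, against 60.9, 36.6, 77.6 and 105 CPM in SA (log2 fold change 0.57, SE 0.35, adjusted p = 0.766 in edgeR). Cxcl12 had a log2 fold change of 0.02 (SE 0.29), and its sign turned with unscaled library totals. The genotypes overlapped for both.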

How the data were processed

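Per the labels, RNA of sorted cells was extracted and made into libraries with low-input kits. The raw counts per gene were computed by the authors and deposited as 1 column per library, with both lanes already joined. Named in the submitters' processing notes are bcl2fastq, STAR, featureCounts, DESeq2 and the builds mm10 and GRCm38. Versions, annotation and strand setting were not given in the sources used here. Reads of overlapping genes (8 members share exon bases with another gene) and of near-identical copies can therefore not be separated. A second table of normalized values was not used.

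All 8 libraries entered 1 fit in edgeR 4.0.16 (R 4.3.3), with filterByExpr on the genotypes, TMM scaling and the robust quasi-likelihood test. P-values were adjusted by Benjamini-Hochberg over all 17316 tested genes, with 0.05 as the limit for a call. An adjusted p comes from edgeR except where DESeq2 1.42.0 is named. A log2 fold change sets SS over SA, and its SE is that value over the root of the F statistic. Wilson intervals and floors of 3 counts cover counting error only. Scripts were tested on simulated data. Exons came from GENCODE M21 on GRCm38, in which all 34 members matched by symbol.

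The members and lists were chosen with earlier results of these data known. All members are named; of other lists, set genes (Ebf1, Il7, Cxcl12 and the sort genes) and a few of smallest p are named, and 1 gene that this rule selects is not reported here. Siglech, Cd3e, Cd8a, Cd8b1, Cxcr5, Top3b, Xist, Ddx3y and the V genes were chosen after their values were seen. Alternatives were DESeq2, limma-voom 3.58.1, 2 other scalings, 2 other filters, a replicate block, a neutrophil covariate, each library left out, and the 3 leukocyte-rich libraries left out.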

Additional observations from a re-analysis of the deposited data

Results flagged for a closer look

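Of 84 groups of 4 values examined (each member, each stage sum, the V gene counts and the number of V genes, in each genotype), 14 had 1 library far from the other 3 by Dixon's criterion. Chance meets it in about 1 group of 20 if values are normal and groups separate. Here it was applied to untransformed values, and stage sums repeat their members. A group with 3 values of 0 and 1 above 0, such as Vpreb2 or Fcer2a in SS, is always flagged. The 14 flagged groups can therefore not be set against chance. In SS replicate 1 these were Vpreb2 at 0.352 CPM, Blnk at 14.9, Pou2af1 at 20.05, Ms4a1 at 5.53, Fcer2a at 0.388, Prdm1 at 17.9 and Irf4 at 8.91 CPM, with the other SS libraries at 0 to 2.58 CPM. The summed CPM of the pre-B genes (25.7), of the regulators (240) and of the plasma cell genes (28.7) stood apart in that library as well. In SA replicate 1, Rag2 at 13.1 CPM, Igkc at 294 CPM and Jchain at 18.4 CPM stood above the other SA libraries. In SA replicate 2, Dntt at 19.5 CPM did so. Of the 14, 10 were in SS replicate 1, and its neutrophil genes were also the highest of the SS libraries, at 16864 summed CPM. The part of leukocyte RNA in these values was not tested.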

How the results depend on the processing

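Over 17 alternatives, 556 member fold changes were computed and 18 had the opposite sign. DESeq2 called 319 genes of the table, 13 members and 5 other B cell genes, against 0 of each in edgeR, and edgeR without a low-count filter called 5 genes. With each library left out in turn, edgeR called 0 to 1 genes and 0 members, and the median log2 fold change of members was -3.73 to -2.17. In these fits 14 to 23 members had an unadjusted p under 0.05 in edgeR and 6 to 17 did not overlap. Both upper counts came without SS replicate 1, where the shares over all genes were 6.22% and 4.51%. Shares over all genes were not computed with other single libraries left out, so those counts have no background. With the neutrophil covariate, 7 members had an unadjusted p under 0.05 (1.95% of all genes) and the median was -1.52. Without the 3 leukocyte-rich libraries, 9 members had one (3.04% of all genes) and 15 did not overlap (10.9% of all genes). Log2 ratios of stage sums were then -1.27 for the receptor genes and -1.31 for the pro-B genes, and with each library left out -4.27 to -2.20 for the plasma cell genes and -4.37 to -2.42 for the pre-B genes. Signs turned with the covariate for Bank1 (0.84), Cd79a (1.18), Ighd (0.16), Rag2 (2.96), Vpreb1 (0.56), Ptprc (0.28) and Cxcl12 (-0.16). Without the 3 libraries they turned for Bach2 (0.14), Cd79a (0.12), Prdm1 (-0.64) and Cxcl12 (-0.31), with limma-voom for Cr2 (-0.50) and Prdm1 (-0.49), and with unscaled totals for Cxcl12 (-0.040). With each library left out, Cr2 ran from -0.61 to 0.75, Prdm1 from -1.90 to 0.78, Dntt from -4.04 to 0.18, Cxcl12 from -0.17 to 0.16 and Ebf1 from -0.15 to 0.047. The cause of these changes was not tested.

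Replicate numbers did not pair the libraries: deviations of same-numbered libraries correlated at 0.22, -0.15, -0.02 and 0.14. With the replicate number as a block, 0 members were called, 20 had an unadjusted p under 0.05, the median was -2.72, and Prdm1 had -0.45. The share over all genes was not computed for this fit. Depth limits Vpreb1, Vpreb2, Rag2, Dntt and Fcer2a most, with counts near 0 in several libraries.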
